A study of Rattus norvegicus with 31 samples.

Results

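The enzymes that conjugate ubiquitin to proteins and remove it again were examined in the CA3 region of aged rats, as the genes whose annotated symbol begins with Ube2, Uba and a digit, Usp and a digit, or Uchl. They numbered 70 of the 9037 genes that a probeset naming a single gene measured, and 113 of the 16204 probesets in the data. Covalent attachment of ubiquitin marks a protein for the proteasome, for endosomal sorting or for a change of partner, and neurons use the system to renew synaptic proteins after activity. An E1 enzyme activates ubiquitin, an E2 enzyme carries it, and an E3 ligase joins it to the substrate. Deubiquitinating enzymes, of which the ubiquitin-specific proteases (USP) and the ubiquitin C-terminal hydrolases (UCH) are separate families, remove it again. There were 4 E1 genes, 24 E2 genes, 3 UCH genes and 38 USP genes. The remaining match, Usp6nl, shares only the symbol: it encodes a GTPase-activating protein of Rab GTPases and is not a deubiquitinase. A further 6 matching probesets name several genes at once and were left out. Each gene was first represented by its brightest probeset (the highest mean over all arrays), and all 113 probesets were then examined. The limit on low intensity, a mean of 4, removed none of them. It could remove no probeset, since the smallest mean in the deposited values was 5.0002.

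mRNA was measured in the CA3 region of the hippocampus of male, outbred Long-Evans rats kept to at least 24 months of age, with 1 Affymetrix rat expression array per rat. Rats were classed by watermaze performance as aged unimpaired (AU) or aged impaired (AI), and none carried a transgene or received a drug. Before tissue was taken, about 2 h after task onset, each rat had 8 trials of either a spatial task (S: visible platform in a fixed place among extramaze cues) or a non-spatial task (NS: platform moved, cues removed). Arrays numbered 8 for AU-S, 8 for AI-S, 8 for AU-NS and 7 for AI-NS, which gave 16 AU-act and 15 AI-act arrays when tasks were pooled. Every group had been trained, so no array shows these genes at rest. The tissue was dissected by hand, and in such bulk tissue fewer cells of a type and less mRNA per cell cannot be told apart.

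Values are log2 gcRMA intensities, and a difference of 1 is a 2-fold change. Array medians lay between 8.968 and 9.14 on this scale, and each array correlated with the others at a mean r of 0.981 to 0.989. Of 7 listed CA3 markers only 3 were measured, Grik4, Bok and Cpne4, with mean log2 values of 10.21, 10.45 and 12.64. None passed the test of AU-act v AI-act at its brightest probeset (limma, 1 with an unadjusted p under 0.05). With any probeset allowed, 1 of the 3 was called higher in AU. The phenotypes differed in a measure of RNA integrity. The gap between the 3′ and 5′ control probesets, averaged over Gapdh and beta-actin, which is larger in degraded or incompletely copied RNA, was 1.45 ± 0.0968 (SD, n = 16) in AU-act and 1.593 ± 0.125 (SD, n = 15) in AI-act. The same gap for hexokinase was 1.413 ± 0.153 in AU-act and 1.793 ± 0.269 in AI-act.

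In AU-act v AI-act, 4 of the 70 genes passed an adjusted p of 0.05 at the brightest probeset, and all 4 were ubiquitin-specific proteases higher in AU: Usp12, Usp24, Usp47 and Usp5. Over all 9037 genes the share called higher was 2.05% and the share called lower was 0.31%. None of the 70 genes was called lower by limma or by SAM, the statistic of the study's methods. By limma 13 (18.6%) had an unadjusted p under 0.05, and all 13 had a higher mean in AU. Over all genes 1263 (14%) had such a p, of which 851 were higher in AU. The median difference over the 70 genes was 0.0258, with 44 of them (62.9%) above 0. Over all genes the median was 0.00317, with 51.7% above 0. With the 3′ to 5′ gap of Gapdh and beta-actin as a covariate the members' median was 0.00397 and that of all genes 0.00149, and with the hexokinase gap they were 0.0174 and 0.0131. The calls at the brightest probeset were in the USP class alone, which holds 38 of the 70 genes. With any probeset allowed, 2 of the 24 E2 genes (8.33%) were called higher too, against 6.89% of all genes.

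**Figure D1:**
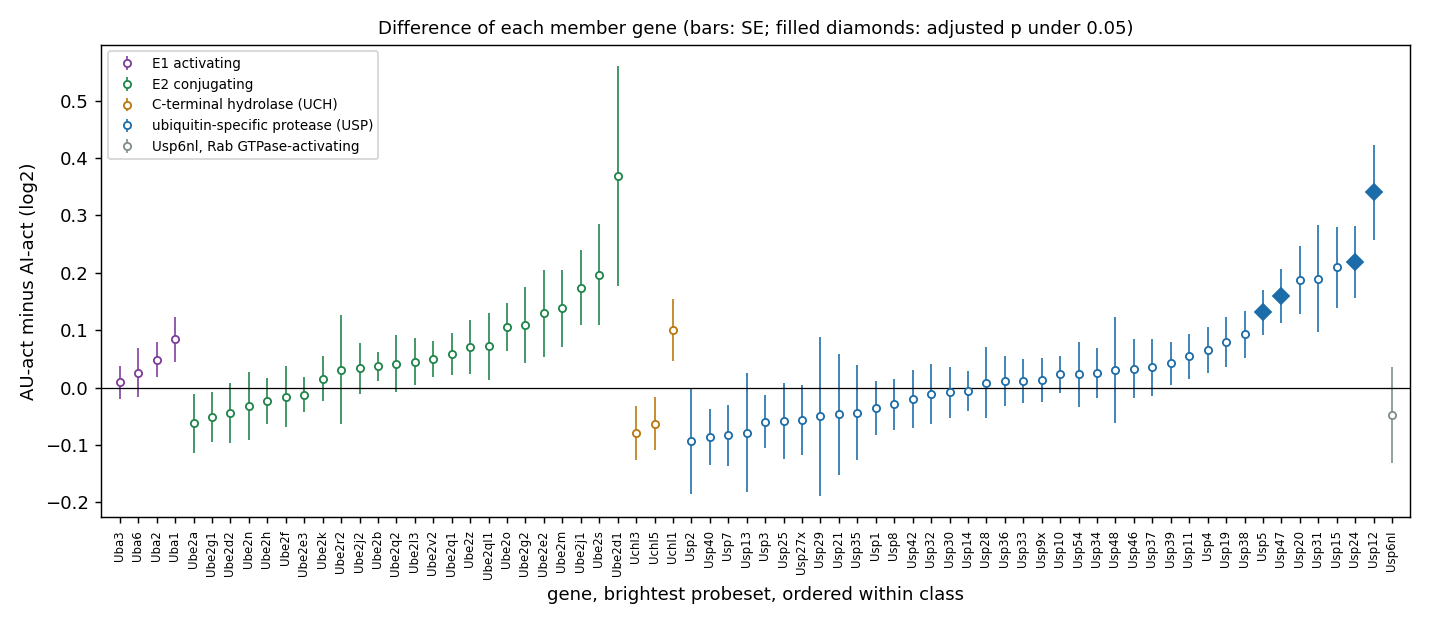
Difference in log2 value between AU-act (n = 16) and AI-act (n = 15) at the brightest probeset of each of the 70 genes, ordered within enzyme class. Circles and diamonds are the fitted differences, bars are 1 SE, and filled diamonds passed an adjusted p of 0.05. The 4 filled points (Usp5, Usp47, Usp24 and Usp12) all lie above 0, while E1, E2 and UCH genes hold none.

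Usp12, a protease that works in a complex with the WD-repeat protein Wdr48, showed the largest difference among the 4. Its lowest, median and highest log2 values were 8.183, 8.546 and 8.905 in AU-S and 7.881, 8.089 and 8.686 in AI-S. After the non-spatial task they were 8.459, 8.622 and 8.804 in AU-NS and 7.881, 8.28 and 8.752 in AI-NS. The ranges overlapped in both tasks, but 15 of the 16 AU arrays lay above the AI mean. The fitted difference was 0.34 (SE 0.08, adjusted p = 0.0109), a 1.27-fold higher level in AU. Usp12 was the only one of the 4 that passed with each of the 31 arrays left out in turn.

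Usp24, a large protease of the same family, had log2 values of 9.858, 9.977 and 10.05 (lowest, median, highest) in AU-S and of 9.33, 9.653 and 9.91 in AI-S. In the non-spatial task they were 9.671, 9.894 and 10.2 in AU-NS and 9.661, 9.822 and 9.999 in AI-NS. The AU-S arrays were tightly grouped at and above the upper end of the AI-S range, and the AU-NS and AI-NS arrays overlapped along most of theirs. The pooled difference was 0.22 (SE 0.06, adjusted p = 0.0323), or 1.16-fold. It passed without 25 of the 31 arrays.

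Usp47, which acts on DNA polymerase beta in base excision repair, had log2 values of 9.933, 10.08 and 10.37 (lowest, median, highest) in AU-act and 9.713, 9.948 and 10.22 in AI-act. Its difference was 0.16 (SE 0.05, adjusted p = 0.0392), with 14 of 16 AU arrays above the AI mean. Usp5, which takes apart free polyubiquitin chains so that ubiquitin can be used again, had values of 10.32, 10.48 and 10.6 in AU-act and 10.11, 10.35 and 10.62 in AI-act. Its difference was 0.13 (SE 0.04, adjusted p = 0.0397), with 15 of 16 AU arrays above the AI mean. Both genes overlapped between phenotypes, and neither call was firm: Usp47 passed without 16 of the 31 arrays and Usp5 without 12. The count of called genes ranged from 1 to 6 with 1 array left out, and it was 1 without AI-NS replicate 8, AU-NS replicate 2, AU-NS replicate 8 or AI-S replicate 3. It was also 1, with Usp12 the gene called, when each array was centred on its median or the values were quantile normalized. Calls over all probesets, 893 in the main fit, ran from 621 to 1181 with 1 array left out. They were 808 under median centring and 773 under quantile normalization.

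**Figure D2:**
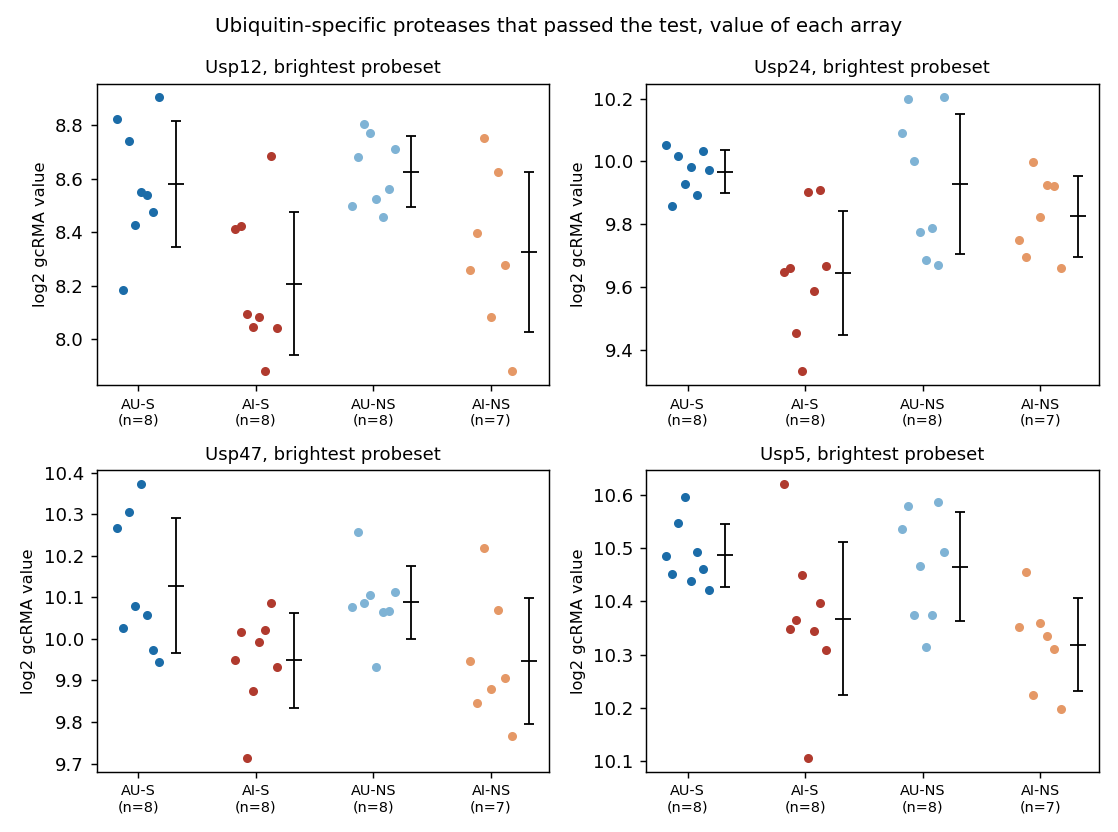
Log2 gcRMA value of every array for Usp12, Usp24, Usp47 and Usp5 at the brightest probeset, by group (AU-S, AI-S and AU-NS with n = 8, AI-NS with n = 7). Points are rats and black marks are group means with SD. AU points sit higher on average in every panel, and the phenotypes overlap in each gene. For Usp24 after the spatial task the highest AI-S value, 9.91, reached only the lower AU-S points.

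Promoters of the 70 genes were read from RefSeq (build GRCr8, windows of 300 bases around the annotated start). It held an entry for 62 of the 70 genes and for 8 of the 10 genes that were called at some probeset. The called genes without an entry were Usp12 and Usp24, the firmest calls at the brightest probeset, so the counts below leave them out. The promoters of Usp47 (chr1:175586542-175586841, plus strand) and Usp5 (chr4:159320907-159321206, minus strand) are shown 5′ to 3′. These are the genes called at the brightest probeset that had an entry. Capitals mark the GC box, spelled GGGCGG, the CCAAT box, the ETS site, spelled CCGGAAG, and the box spelled TATAAA. Each was searched on both strands.
Usp47: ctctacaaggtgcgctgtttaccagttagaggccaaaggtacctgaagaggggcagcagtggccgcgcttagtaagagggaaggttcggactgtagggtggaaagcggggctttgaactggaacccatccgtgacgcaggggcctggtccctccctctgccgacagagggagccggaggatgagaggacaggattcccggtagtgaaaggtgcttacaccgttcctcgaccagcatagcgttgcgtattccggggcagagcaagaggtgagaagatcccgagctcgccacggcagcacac
Usp5: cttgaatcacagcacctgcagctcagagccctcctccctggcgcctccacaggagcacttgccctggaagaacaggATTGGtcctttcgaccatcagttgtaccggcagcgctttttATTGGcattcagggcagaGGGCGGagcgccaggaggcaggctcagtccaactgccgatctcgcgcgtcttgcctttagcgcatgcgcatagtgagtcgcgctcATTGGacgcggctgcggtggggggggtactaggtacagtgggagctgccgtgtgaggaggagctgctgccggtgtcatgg
The Usp47 window held none of the 4 motifs, and the Usp5 window held 1 GC box and 3 CCAAT boxes. A GC box was found in 75.8% of the 62 promoters and in 5 of the 8 called genes, against 64.5% of the 7575 promoters of genes measured here and 33.1% of all 33469 promoters in the table. A CCAAT box was found in 21% of the 62 promoters and in 37.3% of the measured ones, but in 5 of the 8 called genes. An ETS site was found in 22.6% of the 62 and in 4 of the 8, against 18.7% of the measured promoters. TATAAA was found in 8.06% of the 62 and in none of the 8, against 6.14% of the measured promoters. With 8 promoters these counts are a description of letters and not of factor binding.

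Several other proteases came close to the threshold at the brightest probeset. Usp20, which removes ubiquitin from membrane receptors, differed by 0.19 (SE 0.06, adjusted p = 0.0579), and Usp15, found with the COP9 signalosome, by 0.21 (SE 0.07, adjusted p = 0.0737). Neither passed, nor did Usp31 (0.19, SE 0.09) and Usp38 (0.09, SE 0.04), which had an unadjusted p under 0.05. Usp14, the deubiquitinase that sits on the proteasome, had a difference of -0.01 (SE 0.03), with values from 12.69 to 12.95 in AU-act and from 12.65 to 13 in AI-act. Both ranges nearly coincided.

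The most negative differences among all 70 genes also belonged to this class. Usp2, whose transcript is under circadian control, differed by -0.09 (SE 0.09, adjusted p = 0.632). Usp40 also differed by -0.09 (SE 0.05, adjusted p = 0.34). Usp7, which acts on p53 and its ligase Mdm2, differed by -0.08 (SE 0.05, adjusted p = 0.4). None of the 3 passed. Over the 38 USP genes the differences ran from -0.0929 to 0.34 with a median of 0.0128, and 22 were above 0.

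The UCH family gave no call. Uchl1, an abundant neuronal hydrolase, had log2 values of 12.84, 13.11 and 13.2 (lowest, median, highest) in AU-act and 12.52, 12.99 and 13.31 in AI-act. The AI range enclosed the AU range, and the difference was 0.10 (SE 0.05, adjusted p = 0.314), which became -0.01 with the Gapdh and beta-actin covariate. Uchl3, which also cleaves the ubiquitin-like protein NEDD8, differed by -0.08 (SE 0.05, adjusted p = 0.371), and by -0.13 with that covariate. Uchl5, a proteasome-bound hydrolase, differed by -0.06 (SE 0.05, adjusted p = 0.484), and by -0.03 with that covariate. Hence the 3 members did not share a sign without the covariate, and all were below 0 with it.

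The E1 genes gave no call either. Uba1, the main ubiquitin-activating enzyme, ran from 11.79 to 11.99 in AU-act and from 11.57 to 12.13 in AI-act. Its difference was 0.08 (SE 0.04, adjusted p = 0.225), and 15 of 16 AU arrays were above the AI mean although the AI arrays were more spread. With the Gapdh and beta-actin covariate it was 0.04 (SE 0.05). Uba2, the catalytic subunit of the SUMO-activating enzyme, differed by 0.05 (SE 0.03, adjusted p = 0.384), and by 0.08 (SE 0.035) with that covariate. Uba3, the catalytic subunit of the NEDD8-activating enzyme, differed by 0.01 (SE 0.03, adjusted p = 0.912). Uba6, the other E1 that accepts ubiquitin, differed by 0.03 (SE 0.04, adjusted p = 0.804) at its brightest probeset and by -0.0327 to -0.236 at its 3 others. With that covariate Uba3 differed by -0.02, and Uba6 by -0.03 at its brightest probeset. Without it all 4 genes were above 0 at the brightest probeset, and none passed.

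Among the 24 E2 genes none passed at the brightest probeset, with differences from -0.0621 to 0.368, a median of 0.0433 and 17 above 0. Ube2d1, an E2 that serves many E3 ligases, had the largest difference of all 70 genes, 0.37, but also the largest SE of the named genes, 0.19 (adjusted p = 0.291). Its values ran from 8.96 to 10.71 in AU-act and from 8.334 to 10.86 in AI-act, so the AI range enclosed the AU range here too. With the Gapdh and beta-actin covariate the difference was 0.00133 (SE 0.20). Ube2m, which carries NEDD8 to cullin ligases, differed by 0.14 (SE 0.07, adjusted p = 0.252). With that covariate Ube2m differed by 0.16 (SE 0.08). Ube2j1, an E2 of the endoplasmic reticulum membrane that takes part in the degradation of misfolded proteins, differed by 0.17 (SE 0.07, adjusted p = 0.118), and by -0.0004526 (SE 0.06) with that covariate. Ube2s, which extends chains for the anaphase-promoting complex, differed by 0.20 (SE 0.09, adjusted p = 0.204), and Ube2o, which acts as both E2 and E3, by 0.11 (SE 0.04, adjusted p = 0.148). With the same covariate Ube2s differed by 0.06 and Ube2o by 0.10.

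Several genes gave another estimate at a second probeset. With any probeset of a gene allowed, 10 of the 70 genes (14.3%) were called higher in AU and none lower. The share over all 9037 genes was 6.89%. The members, however, were represented by more probesets: of the 34 with several probesets 8 were called (23.5%), against 21.4% of all 2394 such genes. Of the 36 with 1 probeset 2 were called (5.56%), and the share over all such genes was not counted. Of single probesets, 12 of 113 (10.6%) were called higher, against 5% of all 16204 and 5.91% of the 12242 that name 1 gene. Among probesets other than the brightest of their gene, 8 of the members' 43 (18.6%) were called, against 16.8% of the 3205 such probesets overall. The shares among genes with several probesets, and among probesets other than the brightest, lie close to those over all genes and are read here as background. The share of single probesets was larger than over all probesets, and was not tested as a set.

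Ube2h, the E2 of the CTLH ligase complex, showed the widest split. At its brightest probeset the log2 values ran from 11.29 to 11.59 in AU-act and from 11.29 to 11.79 in AI-act, a difference of -0.02 (SE 0.04, adjusted p = 0.809). At another probeset the values were 8.063, 8.572 and 8.867 (lowest, median, highest) in AU-act and 6.994, 7.92 and 8.833 in AI-act. There all 16 AU arrays lay above the AI mean, and the difference was 0.57 (SE 0.14, adjusted p = 0.0102), or 1.48-fold. The remaining probeset of the gene gave 0.23 (SE 0.06, adjusted p = 0.0117), again with all 16 AU arrays above the AI mean. Whether the probesets read different transcript ends was not tested.

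Ube2g2, an E2 of endoplasmic-reticulum-associated degradation, differed by 0.11 (SE 0.07, adjusted p = 0.375) at its brightest probeset. At the other probeset its values were 7.728, 8.135 and 8.518 (lowest, median, highest) in AU-act and 6.417, 7.813 and 7.953 in AI-act. All 16 AU arrays were above the AI mean, and the difference was 0.43 (SE 0.11, adjusted p = 0.0125). The value of 6.417 belonged to AI-NS replicate 8, and without that array the difference was 0.33 (SE 0.06, adjusted p = 0.00304). The promoters of Ube2h (chr4:59897534-59897833, minus strand) and Ube2g2 (chr20:11005011-11005310, minus strand) are shown in the same way, as the E2 genes with a call.
Ube2h: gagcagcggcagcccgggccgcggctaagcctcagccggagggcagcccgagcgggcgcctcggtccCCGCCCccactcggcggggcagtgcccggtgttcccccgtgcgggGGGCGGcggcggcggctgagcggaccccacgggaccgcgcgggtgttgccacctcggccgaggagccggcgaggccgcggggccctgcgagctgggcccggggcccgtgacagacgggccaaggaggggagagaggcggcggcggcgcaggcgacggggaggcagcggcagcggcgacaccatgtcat
Ube2g2: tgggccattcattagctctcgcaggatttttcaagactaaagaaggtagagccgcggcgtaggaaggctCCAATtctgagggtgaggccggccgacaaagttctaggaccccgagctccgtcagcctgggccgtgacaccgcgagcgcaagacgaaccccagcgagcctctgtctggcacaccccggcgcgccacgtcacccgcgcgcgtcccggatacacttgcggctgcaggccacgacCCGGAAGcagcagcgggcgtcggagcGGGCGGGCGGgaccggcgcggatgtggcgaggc
The Ube2h window held 2 GC boxes and was 80.3% G or C. The Ube2g2 window held 2 overlapping GC boxes, 1 CCAAT box and 1 ETS site and was 67.3% G or C, against a median of 61.7% for the measured genes.

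Usp11, a protease linked to DNA repair, had its 2 probesets at a mean of 11.04 and 7.349. At the brighter the difference was 0.05 (SE 0.04, adjusted p = 0.474). At the dimmer the values were 7.077, 7.578 and 7.952 (lowest, median, highest) in AU-act and 6.673, 7.119 and 7.587 in AI-act, and the difference was 0.41 (SE 0.09, adjusted p = 0.00607), the smallest adjusted p of any probeset of these enzymes. Its AU median was just under the highest AI array.

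**Figure D3:**
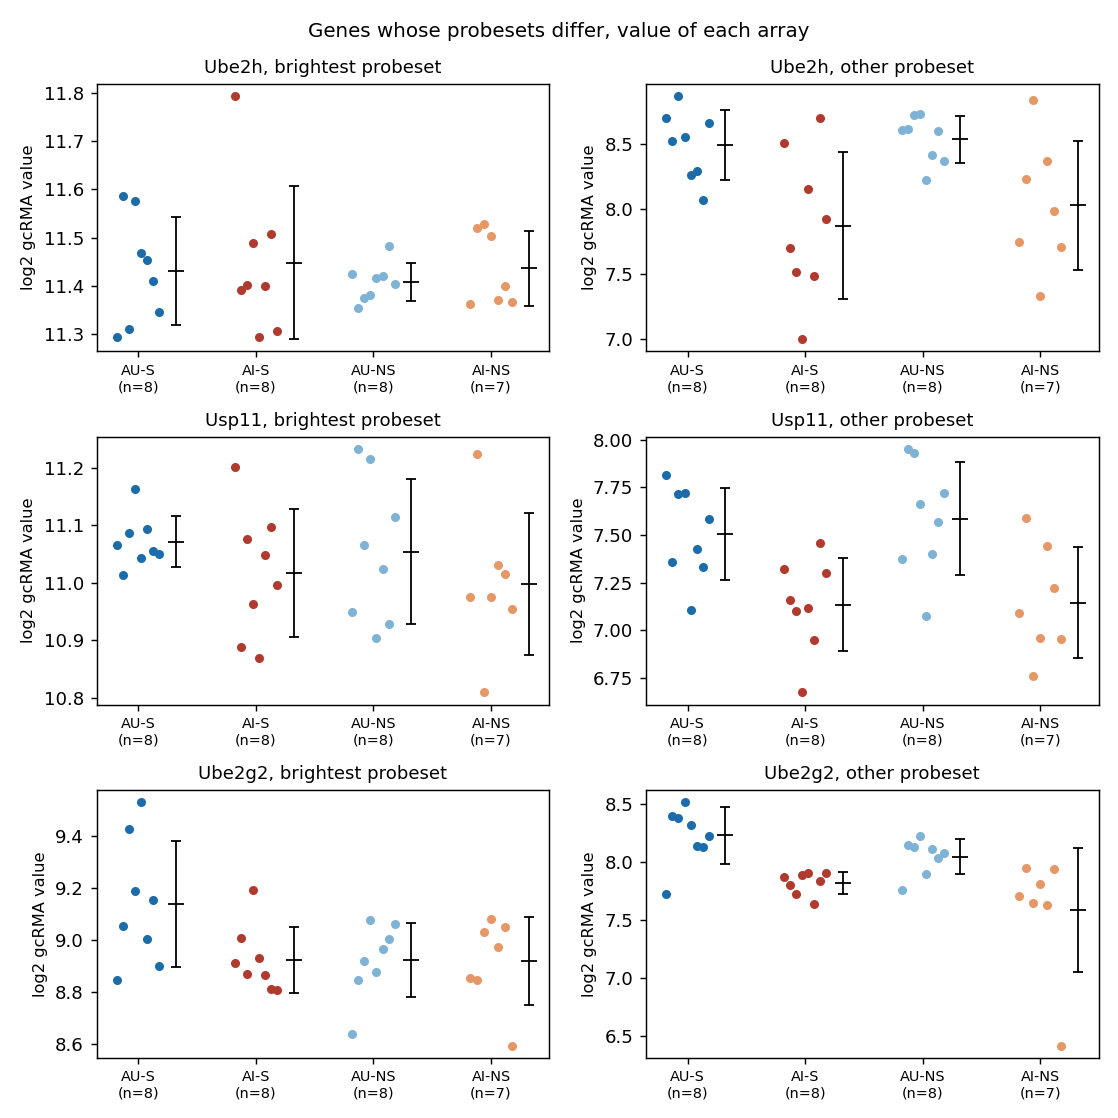
Log2 gcRMA value of every array at the brightest probeset (left) and at the other probeset with the smallest adjusted p (right) of Ube2h, Usp11 and Ube2g2, in the 4 groups (n = 8, and 7 for AI-NS). Points are rats and black marks are means with SD. Left panels show AU and AI groups at similar levels, apart from higher AU-S points for Ube2g2. Right panels show the AI groups lower, with AI-NS replicate 8 far below the rest for Ube2g2.

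Dimmer probesets of Usp20, Usp30 and Usp8 were also called. The second Usp20 probeset differed by 0.30 (SE 0.08, adjusted p = 0.028), next to 0.19 at the brightest, so both pointed the same way. Usp30, which sits on the outer mitochondrial membrane and opposes the ligase parkin, differed by 0.28 (SE 0.09, adjusted p = 0.0474) at a dim probeset and by -0.01 (SE 0.04) at the brightest. Usp8, which acts in endosomal sorting, differed by 0.30 (SE 0.09, adjusted p = 0.0491) at a probeset with a mean of 5.555 and by -0.03 (SE 0.04) at the brightest. For the last of these, values ran from 5.384 to 6.121 in AU-act and from 4.905 to 6.02 in AI-act.

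Usp47 was called at both of its probesets, the second at 0.19 (SE 0.05, adjusted p = 0.0392). Usp24 was called at the brighter one, while its other probeset differed by -0.004368 (SE 0.04). Usp32 missed the threshold at its dimmer probeset (0.30, SE 0.10, adjusted p = 0.0556) and stood at -0.01 (SE 0.05) at its brightest. Over the 34 genes with several probesets, the one farthest from the brightest gave a higher difference in 24. That count was not made over all genes. Probesets other than the brightest had a median difference of 0.0515 among the members and 0.0729 over all genes, so the count is read as background. The median gap between the highest and the lowest difference of a gene was 0.11, against 0.132 over all such genes.

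**Figure D4:**
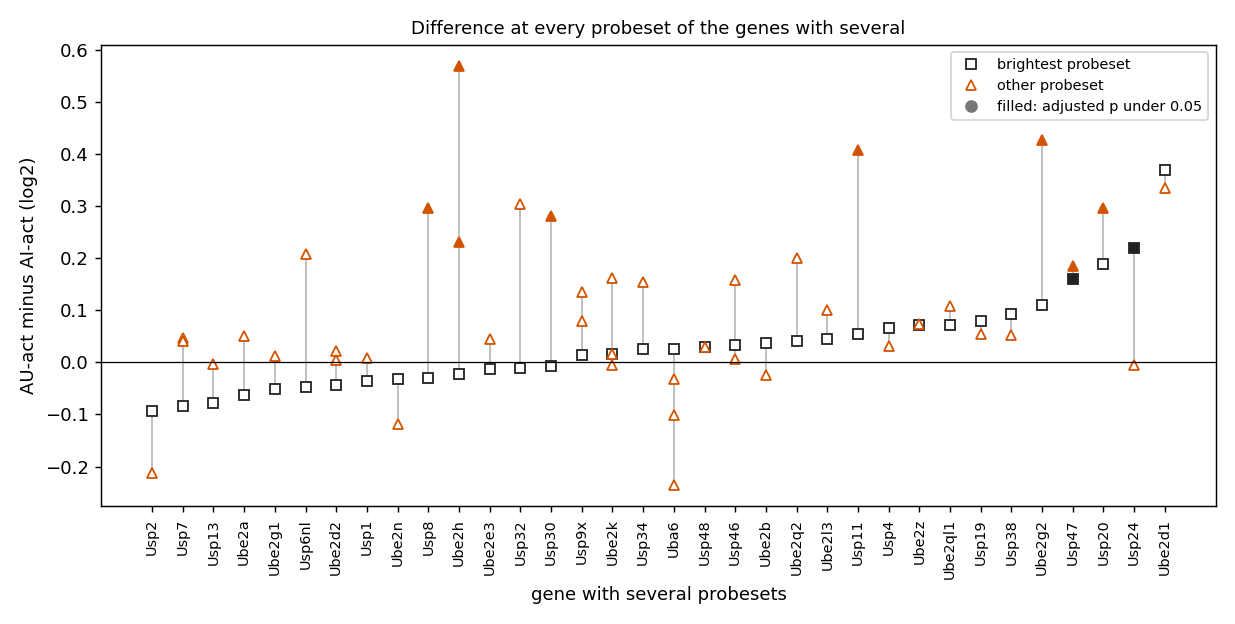
Difference in log2 value between AU-act (n = 16) and AI-act (n = 15) at every probeset of the 34 genes with more than 1, ordered by the difference at the brightest. Squares are brightest probesets, triangles are the others, filled symbols passed an adjusted p of 0.05, and grey lines join the probesets of a gene. Ube2h, Usp11, Usp8 and Usp30 have filled triangles far above an open square near 0, whereas Usp47 has both symbols filled and close together.

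The tasks were then examined one at a time, with an adjusted p of 0.1 as the threshold. In AU-S v AI-S none of the 70 genes passed by limma at the brightest probeset, and 1 was called by SAM. The share called by limma over all genes was 0.0885%. An unadjusted limma p under 0.05 was found for 10 of the 70 (14.3%), against 8.83% of all genes. Usp24 came closest, at 0.32 (SE 0.08, adjusted p = 0.105). Of the 113 probesets 1 passed, the dimmer one of Ube2g2 at 0.41 (SE 0.09, adjusted p = 0.084), against 0.413% of all probesets. The Ube2g2 values there were 7.728 to 8.518 in AU-S and 7.64 to 7.909 in AI-S. In AU-NS v AI-NS none passed by limma or SAM, and limma called 0% of all genes. An unadjusted limma p under 0.05 was found for 4 (5.71%), against 7.03% of all genes. Usp12 came closest at 0.30 (SE 0.11, adjusted p = 0.319).

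The phenotype difference of the 4 called proteases was positive in each task. These genes were selected for a higher mean in AU over the same arrays pooled, so the shared sign does not test agreement between tasks. Usp12 differed by 0.37 after the spatial and 0.30 after the non-spatial task, Usp47 by 0.18 and 0.14, and Usp5 by 0.12 and 0.15. Usp24 differed by 0.32 and 0.10, and the interaction that compares these values was 0.22 (SE 0.12, adjusted p = 0.9999). Of the 70 genes, 47 (67.1%) had the same sign in both tasks, against 62.7% of all genes. The interaction of phenotype and task gave no call by limma among the members, and 0% of all genes passed. No member had an unadjusted p under 0.05, against 2.5% of all genes. Usp2 had the smallest interaction p, at -0.33 (SE 0.18, adjusted p = 0.9999).

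The task itself gave no call among these enzymes. In AI-S v AI-NS none passed by limma or SAM, with 0% of all genes called. By limma 1 had an unadjusted p under 0.05 (1.43%, against 4.42% of all genes). That gene was Usp28, a protease that stabilises substrates of the ligase adaptor Fbxw7, at -0.22 (SE 0.09, adjusted p = 0.862). In AU-S v AU-NS none passed by limma or SAM, with 0% of all genes called. By limma 4 had an unadjusted p under 0.05 (5.71%, against 8.07% of all genes). Ube2q2 had the smallest p, at -0.18 (SE 0.05, adjusted p = 0.605). These comparisons share arrays with those of the phenotypes, so their values are only set side by side.

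The RNA measure moved with the calls. With the 3′ to 5′ gap of Gapdh and beta-actin as a covariate, none of the 70 genes and none of the 113 probesets passed in AU-act v AI-act by limma. Before adjustment 6 genes had a p under 0.05. The smallest adjusted p among the members' probesets was 0.217. The same fit left 1 call among all 16204 probesets, where 893 were called without the covariate. With the hexokinase measure none passed, 3 genes had an unadjusted p under 0.05, and the count over all probesets was 0. Phenotype and RNA measure differ together in these arrays, so the part of either in these calls cannot be told apart.

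The covariate changed some estimates more than others. Usp12 went from 0.34 to 0.16 (SE 0.08, adjusted p = 0.446) with the Gapdh and beta-actin measure and to 0.05 with hexokinase. Usp24 went from 0.22 to 0.14 (SE 0.07, adjusted p = 0.44) and 0.10, and Usp47 from 0.16 to 0.13 (SE 0.06, adjusted p = 0.357) and 0.07. The other Usp47 probeset went from 0.19 to 0.11 and 0.05. The dim Ube2h probeset with the largest difference went from 0.57 to 0.25 and 0.07. The called probeset of Usp11 went from 0.41 to 0.19 and 0.21, and that of Ube2g2 from 0.43 to 0.25 and 0.20. Usp5 went from 0.13 to 0.11 (SE 0.05, adjusted p = 0.359) and 0.12, and the dim Usp20 probeset from 0.30 to 0.31 (SE 0.10, adjusted p = 0.217) and 0.34. All 12 called probesets stayed above 0 with either measure, but none passed. They had been selected for a higher mean in AU, so their sign is not a test of persistence. With scores of dentate granule and CA1 markers as covariates, which follow how cleanly CA3 was cut out, 4 genes and 11 probesets of these enzymes passed.

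**Figure D5:**
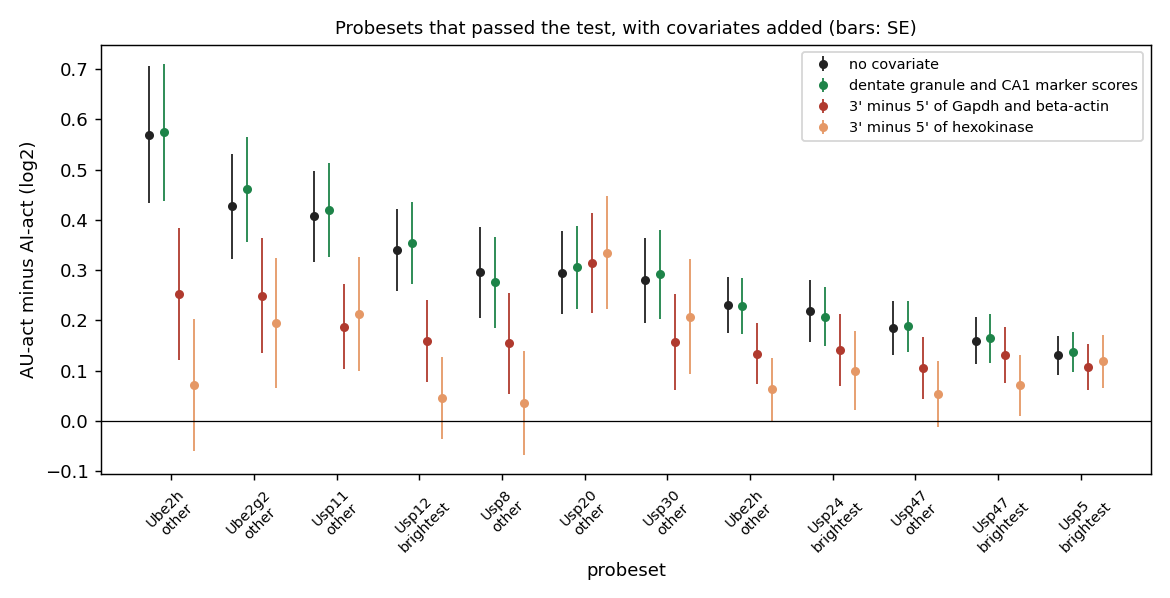
Difference in log2 value between AU-act (n = 16) and AI-act (n = 15) at the 12 called probesets, fitted without a covariate, with dentate granule and CA1 marker scores, with the 3′ to 5′ gap of Gapdh and beta-actin, and with that of hexokinase. Bars are 1 SE. The estimates of Ube2g2, Ube2h, Usp8, Usp11, Usp12, Usp24 and the dimmer Usp47 probeset drop by more than their SE with either RNA measure. Those of Usp5 and Usp20 move by less than theirs, and those of Usp30 and the brighter Usp47 probeset drop by more with only one of the measures.

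Other genes of the pathway were counted at their brightest probeset in the same fit. Among 96 measured E3 ligases 2 were called higher and none lower: Rnf19a, a RING-between-RING ligase (0.16, SE 0.04, adjusted p = 0.00874) and Ubr4 (0.19, SE 0.06, adjusted p = 0.0474), a ligase that recognises destabilising N-termini. Among 21 deubiquitinases of other families none was called in either direction by limma, with 2 at an unadjusted p under 0.05. Among 32 ubiquitin-like modifiers and their enzymes 1 was higher, Cand1 (0.13, SE 0.04, adjusted p = 0.0319), which exchanges the substrate receptors of cullin ligases. These counts were near the 2.05% of all genes.

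Among 22 shuttle and segregase factors, which bring ubiquitylated proteins to the proteasome or to autophagy, 4 were higher and none lower. Over all genes 2.05% were called higher, and the list was not tested as a set. Vcp, the ATPase that pulls ubiquitylated proteins out of complexes and membranes, differed by 0.14 (SE 0.04, adjusted p = 0.0337). Nploc4, its cofactor, differed by 0.09 (SE 0.03, adjusted p = 0.0404), and the partner of Nploc4 in that cofactor, Ufd1, by 0.03 (SE 0.04, adjusted p = 0.669). Ddi2, a protease with a ubiquitin-like domain, differed by 0.21 (SE 0.06, adjusted p = 0.0411) and the autophagy receptor Sqstm1 by 0.15 (SE 0.04, adjusted p = 0.0426). The list's median difference was 0.0409, next to 0.00317 over all genes. With the Gapdh and beta-actin covariate these medians were 0.0423 and 0.00149, and none of the 4 passed. That fit left 1 call among all 16204 probesets.

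Markers of cell types were read for the same comparison. The mean of the 6 neuronal markers ran from 12.85 to 13.04 in AU-act and from 12.71 to 13.01 in AI-act, a difference of group means of 0.0994. Syt1 was called higher (0.28, SE 0.07, adjusted p = 0.0139). The others, from -0.004 for Rbfox3 to 0.16 for Tubb3, were not called, and the median of the list was 0.0691. With the Gapdh and beta-actin covariate Syt1 differed by 0.10 (adjusted p = 0.543). Among the 6 interneuron markers Gad2 was called higher (0.48, SE 0.14, adjusted p = 0.0391), and stood at 0.22 (adjusted p = 0.598) with that covariate. Vip differed by -0.34 (SE 0.15, adjusted p = 0.203), Sst by -0.06 and Npy by -0.05, and the median of the list was 0.0168. No marker of astrocytes (6 measured), oligodendrocytes (5), microglia (5), endothelium (5), dentate granule cells (3) or CA1 pyramidal cells (4) was called at its brightest probeset by limma, and 1 of them, of oligodendrocytes, had an unadjusted p under 0.05. With any probeset allowed, 2 oligodendrocyte, 1 astrocyte and 2 interneuron markers were called higher in AU, against 6.89% of all genes. No marker of microglia, endothelium, dentate granule cells or CA1 pyramidal cells was called higher in that count. The part of neuronal content in the differences of the proteases was not tested.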

How the data were processed

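The authors hybridised CA3 RNA of aged rats to Affymetrix rat expression arrays, 1 per rat, and 31 arrays were left after they had removed 1 AI-NS array. The deposited values are log2 intensities made with gcRMA in R (affy and gcrma packages, versions not given in the sources used here), for 16204 probesets. No hybridisation batch is given in those sources. Groups came from the sample titles, and replicate numbers did not pair rats. The number of arrays limits the precision.

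Probesets with a mean of at least 4 (all of them) were compared with limma 3.58.1 in R 4.3.3 (lmFit and two-sided eBayes tests with a constant prior variance). P-values were adjusted by Benjamini-Hochberg over every probeset. A call needed an adjusted p under 0.05 in AU-act v AI-act and under 0.1 otherwise. SAM (100 permutations) was an alternative. Probesets were named through GEO's platform annotation, where 3669 have no gene. Scripts were tested on simulated data, and figures were drawn with matplotlib 3.10.9.

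The members, lists and tests were chosen with earlier results of these data known. Named genes were members called at the brightest probeset, up to 6 called at another, the smallest p in each other comparison, 9 members of known role, the 3 largest differences each way, the 3 with the most unlike probesets, and up to 2 called genes of each pathway list. Uba6, Usp15, Usp31, Usp38, Ube2j1, Ube2o, Ube2s, Ddi2, Sqstm1 and Ufd1 were added after their values were seen. The choroid plexus list had no gene measured by a probeset naming it alone.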

Additional observations from a re-analysis of the deposited data

Results flagged for a closer look

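In 35 probesets of the named genes, each of the 4 groups was searched for a single rat far from the rest of its group. In 8 of the 140 groups (5.71%) the gap to the nearest other rat exceeded the critical value of Dixon's test, and chance flags about 1 in 20. The dimmer Ube2g2 probeset stood at 6.417 in AI-NS replicate 8, where the others ran from 7.633 to 7.953. AI-S replicate 1 was high for the brightest probesets of Ube2h (11.79, others 11.29 to 11.51) and Usp2 (9.966, others 9.007 to 9.431). AU-S replicate 1 was low for Uchl5 (9.397, others 9.654 to 9.857). It was high for the dimmer probesets of Usp8 (6.121, others 5.384 to 5.686) and Usp32 (10.71, others 10.07 to 10.31). AI-S replicate 2 was low for Usp14 (12.65, others 12.78 to 12.9), and AI-S replicate 4 was low for the second Usp47 probeset (9.571, others 9.762 to 9.922). No named gene passed the test of the interaction of phenotype and task.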

How the results depend on the processing

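In AU-act v AI-act the 4 genes called at the brightest probeset, and the 10 called at any probeset, became 1 and 6 under median centring, 1 and 6 under quantile normalization, 0 and 0 with either RNA covariate, and 6 and 15 with array weights. With the replicate block they became 1 and 4, although the numbers do not pair the rats (mean correlation of same-numbered deviations -0.181 to 0.011). Over all probesets 893 were called in the main fit, 808 under median centring and 773 under quantile normalization. With array weights 1287 were called, with the block 591, and with the RNA covariates 1 or 0. The block changed no call in the other comparisons. Allowing any probeset took the count from 4 to 10. Leaving out 1 array gave 1 to 6 genes at the brightest probeset and 4 to 13 at any, with 621 to 1181 calls over all probesets. The first count moved by over 1.5 times without 12 of the 31 arrays. It was 1 without AI-NS replicate 8, AU-NS replicate 2, AU-NS replicate 8 or AI-S replicate 3, and 2 without AI-NS replicates 1, 5 or 7, AU-NS replicate 4, AI-S replicates 4 or 6, or AU-S replicates 1 or 3. The second count moved as far without 10 arrays: it was 4 without AU-NS replicate 2, 5 without AI-NS replicate 8, AU-NS replicate 8 or AI-S replicate 3, and 6 without AI-NS replicate 5, AI-S replicates 4, 5 or 6, or AU-S replicates 1 or 3. In AU-S v AI-S the count of 0 became 1 with a limit of 6 on the mean, with a trend and robust prior, with SAM or with any probeset, and 2 with array weights. It ran from 0 to 2 with 1 array left out (1 without AI-S replicate 1 or 5, 2 without AI-S replicate 7). The counts of the other comparisons stayed at 0 under each alternative run. The difference of Uchl1 became -0.01193 with the Gapdh and beta-actin covariate. With hexokinase, Ube2d1 became -0.01822, Uchl5 0.02791 and the dimmer Usp32 probeset -0.04182. A change of sign of an uncalled gene lying within 1 SE of 0 was not counted. The cause of these changes was not tested, and SAM was not run for the interaction.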
